A study of Saccharomyces cerevisiae with 6 samples.

Results

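The yeast proteasome genes and RPN4, the gene of their transcriptional activator, were followed through late meiosis with and without a driven HAC1 transcript. The members were the 33 genes whose symbols stand in the table's descriptions: 14 of the core particle, 9 of the base, 8 of the lid, RPN10 and RPN4. They are 33 of 6679 open reading frames (ORFs) in the table, and all 33 were among the 6025 ORFs with a mean value of at least 5 that were tested. SEM1, the small subunit of the lid, was not among the members, so subunit and lid summaries leave it out. Its values are given with the related genes further on. Poly(A)-selected RNA of Saccharomyces cerevisiae strain SK1, which sporulates readily, was sequenced from 6 samples of cells in sporulation medium. At 5 h in that medium the cells were given either ethanol (vehicle) or an agent that the labels name bEST (inducer). Samples of each treatment were taken 1, 1.5 and 2 h later, at 6, 6.5 and 7 h, and 1 library was made for each treatment and hour. The design text says that spliced HAC1 mRNA was driven to high levels, the labels give the genotype of all 6 samples as WT and name no construct, and samples with the agent alone, lacking the driven gene, were not analysed here. Effects of bEST and of HAC1 therefore cannot be told apart.

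The proteasome degrades proteins marked with ubiquitin. Its core particle is a barrel of stacked rings, in which the outer alpha rings form the gate and the inner beta rings hold the catalytic sites, and a regulatory particle made of a base and a lid sits on its ends. The base holds a ring of ATPases that unfolds substrates, and the lid removes the ubiquitin chain. Rpn4 binds the proteasome-associated control element (PACE) in promoters of proteasome genes and is itself a short-lived proteasome substrate, so that its level is set in a feedback loop. Hac1 is the transcription factor of the unfolded protein response, which senses misfolded proteins in the endoplasmic reticulum (ER). The proteasome degrades proteins that are exported from the ER for destruction.

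The element that ties these genes together was looked for first. PACE, written GGTGGCAAA, was searched on both strands in windows of 250 bases before to 50 bases after each start codon in the S288C reference assembly R64. The libraries are SK1, and the sources used here do not name the build the authors used. The exact element stood in the windows of 27 of the 32 subunit genes (84.4%) and in 71 of all 5962 windows (1.19%). It was present in 12 of 14 core, 8 of 9 base and 7 of 8 lid windows, and absent from the window of RPN4. The matches began a median of 120 bases before the start codon (84 to 183), 19 of them on the strand of the gene and 8 on the other strand. Examples are written in the direction of the gene, from 5′ to 3′, with the element in capitals and 10 flanking bases on each side. They were taken from genes whose values are described later: RPN9 and RPN2 had the largest differences in the lid and the base, RPN12 the steepest slope over time, and RPT6 and PRE3 are an ATPase and a catalytic subunit.
RPN9: gctttcatccGGTGGCAAAagtaagaaca
RPN2: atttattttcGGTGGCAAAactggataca
RPT6: atgcgagcgaGGTGGCAAAagttgtaata
RPN12: ctacacattaTTTGCCACCcattgaaatt
PRE3: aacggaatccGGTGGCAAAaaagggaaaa
These lie at chrIV:1322086-1322114 (plus strand) for RPN9, chrIX:220801-220829 (minus) for RPN2, chrVII:411352-411380 (minus) for RPT6, chrVI:252398-252426 (plus) for RPN12 and chrX:435035-435063 (plus) for PRE3. The RPN12 match is on the strand opposite to the gene and therefore reads as TTTGCCACC.

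In the windows of PRE5, PUP1, RPN8, RPN10 and RPN13 the exact element was not found, and each of them held a sequence that differs from it by 1 base. Such a sequence stood in 382 of the 5891 windows without the exact element (6.48%). Substitutions are given with the base of the element first, its position counted from 1 at the 5′ end of GGTGGCAAA, and the base of the site last. The substitution was G1A in PRE5, PUP1 and RPN8, and A7G in RPN10 and RPN13. The sites are shown because PRE5 and PUP1 had the largest differences with inducer in the core.
PRE5: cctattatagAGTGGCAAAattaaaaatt
PUP1: aacccggccgAGTGGCAAAataccaaaaa
RPN8: gggatacctcAGTGGCAAAtcgttactca
RPN10: caggcgggttTTCGCCACCggaatttaca
RPN13: ttattcgcgaGGTGGCGAAagctttgcta
They lie at chrXIII:901552-901580 (plus strand) for PRE5, chrXV:631891-631919 (minus) for PUP1, chrXV:817085-817113 (minus) for RPN8, chrVIII:498968-498996 (plus, with the match on the other strand) for RPN10 and chrXII:965656-965684 (minus) for RPN13. The Hac1-type element CAGCGTG, found in 1.17% of all windows, was in none of the 32 subunit windows and not in that of RPN4. Its looser form CAGNGTG stood in 1 subunit window, that of RPT3 (5.42% of all windows). TACGTG, a separate Hac1-type element, stood in 1 subunit window, that of RPN8 (7.77%). Neither stood in the window of RPN4. Among the companions, CAGNGTG stood in the window of NAS6 and TACGTG in those of DOA4 and HSM3. The RPN4 window also held no TCCGNGGA (the element of Pdr1 and Pdr3, in 1.21% of all windows) and no TTACTAA (the element of Yap1, in 7.5%). These are matches of letters in a fixed window, and an absence says only that the letters are not there.

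The deposited values are reads per kilobase of coding length on a scale set per library, here called RPKM-type values, so levels of different genes can be set side by side. Recovered depth, worked out from the low values, was 13.3, 6.01 and 11.7 megareads in the vehicle libraries of 6, 6.5 and 7 h and 9.50, 21.7 and 9.87 megareads in the inducer libraries. The member with the fewest recovered reads was RPN13 in vehicle at 6.5 h, with 802 reads and a counting error of 3.53%. Changes are differences of log2(value + 1), and ± gives the standard error (SE) from the fit to 3 hourly pairs; where none is printed for a gene's change with inducer, it was 0.14 to 0.17 for members and 0.12 to 0.21 for other genes named, and adjusted p-values are from limma with Benjamini-Hochberg adjustment over all 6025 ORFs. A gene is said to have risen or fallen only where the adjusted p was under 0.05. The labels do not say whether separate cultures were used, so a p-value here reflects the spread of these libraries alone, which may be technical. For inducer against vehicle that spread comes from how far the hourly differences lay apart, since no treatment and hour was replicated. A difference that changes from hour to hour therefore also enters the SE and the p-value. In RNA from whole cultures, fewer cells of a type and less RNA per cell cannot be told apart.

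The driven transcript was checked first. Vehicle values of HAC1 (YFL031W) were 127, 128 and 98.4 over the 3 hours, those with inducer were 28926, 48866 and 53257, and the change was 8.48 ± 0.23 (adjusted p = 7.84e-06 by limma). KAR2 (YJL034W), the ER chaperone and a textbook Hac1 target, rose by 4.01 ± 0.33 (adjusted p = 0.00082 by limma). All 12 meiotic markers were detected in every library. Their summed value was 38505 to 45519 in vehicle and 31577 to 39844 with inducer. IME1, SPO11, DMC1 and HOP1 were called lower with inducer (4 of 12, against 8.35% of all tested ORFs), and 11 of the 12 changes were negative. REC8 went the other way without passing (0.38, adjusted p = 0.106 by limma), with all 3 inducer values above all 3 vehicle values. The summed value of 8 haploid and mating markers was 809 to 935 in vehicle and 1033 to 2051 with inducer, with MFA1 called higher of 7 tested. MFA1, at 397 to 510 in vehicle and 599 to 1573 with inducer, carried most of that higher sum. The median of the 8 was 27.7 to 32.1 in vehicle and 30.2 to 47.4 with inducer, and 3 of the 7 tested changes were negative. The summed value of 6 mitotic G1 daughter markers was 209.7 to 252 in vehicle and 243 to 525 with inducer, with DSE1 called higher and PCL1 lower. DSE1 carried the higher sum, since the median of the 6 was 33.6 to 40.7 in vehicle and 27.2 to 32.7 with inducer, and no marker of either list was at 0. The part of these marker shifts in the results for proteasome genes was not tested.

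Proteasome transcripts were abundant in every library. By mean value over the 6 libraries, the 32 subunits lay between the percentiles 78.1 and 97.3 of all 6679 ORFs in the table. The median of the tested ORFs was 135 to 157 in single libraries. The core had the highest median level of the 3 subassemblies in each library. Core medians were 1592, 1331 and 1134 in vehicle at 6, 6.5 and 7 h and 1569.7, 1258 and 1194 with inducer. Base medians were 1180.0, 923 and 865 in vehicle and 1153, 893 and 945 with inducer, and lid medians were 1343, 992 and 979 and then 1277, 1025 and 1023. At each hour the vehicle and inducer medians of a subassembly lay closer together than the 6 h and 7 h medians of vehicle, and the highest of the 3 hours was 6 h in both treatments.

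**Figure D1:**
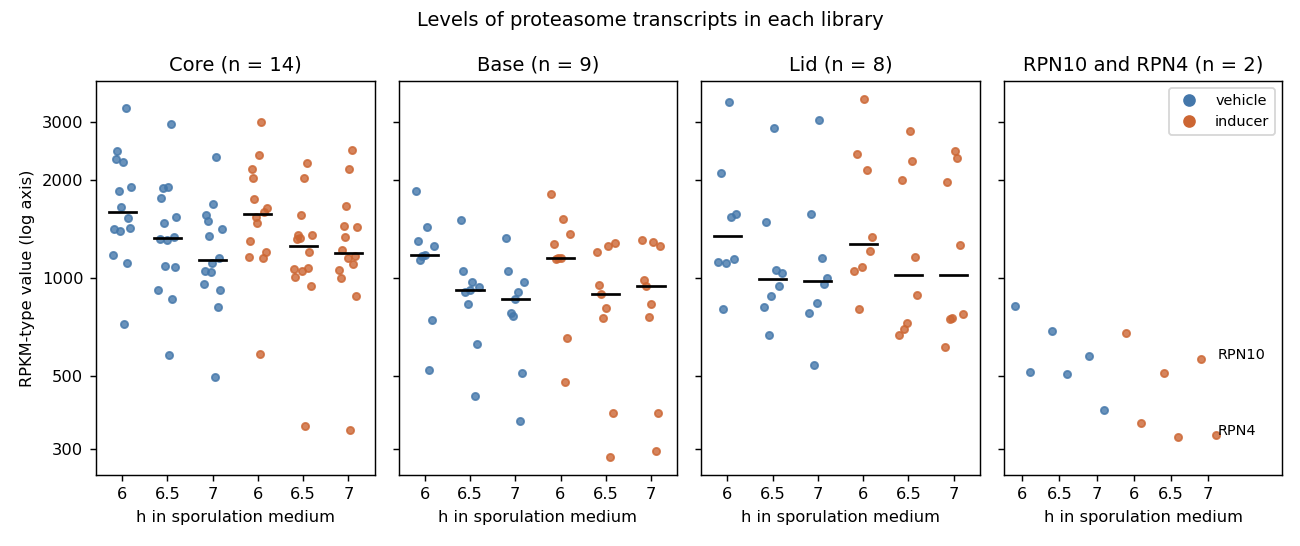
RPKM-type value (log axis) of each proteasome gene in each of the 6 libraries, by hours in sporulation medium, for vehicle (blue) and inducer (orange); points are genes, black lines are medians over the genes of a subassembly, and the last panel holds RPN10 (upper points) and RPN4 (lower points). The core median was 1592 at 6 h and 1134 at 7 h in vehicle and 1569.7 and 1194 with inducer; PUP1 is the lowest core point and RPN1 the lowest base point in every library.

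The level panels show that the members were far from equal, although a proteasome holds its subunits in fixed numbers. Among the 32 subunits counted, RPN8, a lid subunit that pairs with the deubiquitinase Rpn11, was the highest in 4 libraries. PUP3, a beta-ring subunit, was the highest in the remaining 2. SEM1, which is outside this count, had a higher mean value over the 6 libraries (3727) than RPN8 (3037). RPN1, the scaffold of the base that receives shuttle factors, was the lowest subunit in all 6 libraries. The ratio of the highest to the lowest of the 32 subunits was 6.62, 6.79 and 8.38 in vehicle at 6, 6.5 and 7 h and 7.38, 9.98 and 8.40 with inducer. The standard deviation of log2 level over the 32 subunits was 0.61, 0.62 and 0.64 in vehicle and 0.65, 0.76 and 0.77 with inducer. Without RPN9 it was 0.62, 0.63 and 0.65 against 0.65, 0.75 and 0.75. By this measure the subunit levels lay farther apart in each inducer library than in any vehicle library, with RPN9 or without it. At 6 h the excess was small (0.655 against 0.639 in vehicle at 7 h, and 0.654 against 0.648 without RPN9). No test was made of this spread, and the same spread over all ORFs was not worked out.

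The comparison of inducer with vehicle at matched hours asked which proteasome transcripts differed in the presence of driven HAC1. RPN9 of the lid rose, PUP1 of the core fell, and the other 31 members did not pass. Over all tested ORFs 10.0% were called higher and 8.35% lower, so the members' 1 higher and 1 lower of 33 lay below those shares. At an unadjusted p under 0.05 there were 6 of 33 members, the others being RPN4, PRE5, RPN2 and RPN1, where 2128 of 6025 ORFs reached it. The change was negative in 22 members and positive in 11 (21 and 12 with libraries scaled by the median of ratios, under which PRE2 turns positive). It was negative in 59.4% of all ORFs, and in 53.4% under that scaling. The median change was -0.13 for the core, -0.08 for the base and 0.04 for the lid, against -0.08 for all tested ORFs. Relative to the all-ORF median these are -0.05, 0.00 and 0.12, and they kept those values to 2 decimals under both other scalings. Inducer libraries were all higher than vehicle libraries in 3 members, PRE5, RPN9 and RPN11, where 17.3% of all ORFs were so, and all lower in 1 member, RPN4, where 14.1% were. The 3 hourly differences had one sign in 25 of 33 members, against 60.5% of all ORFs.

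**Figure D2:**
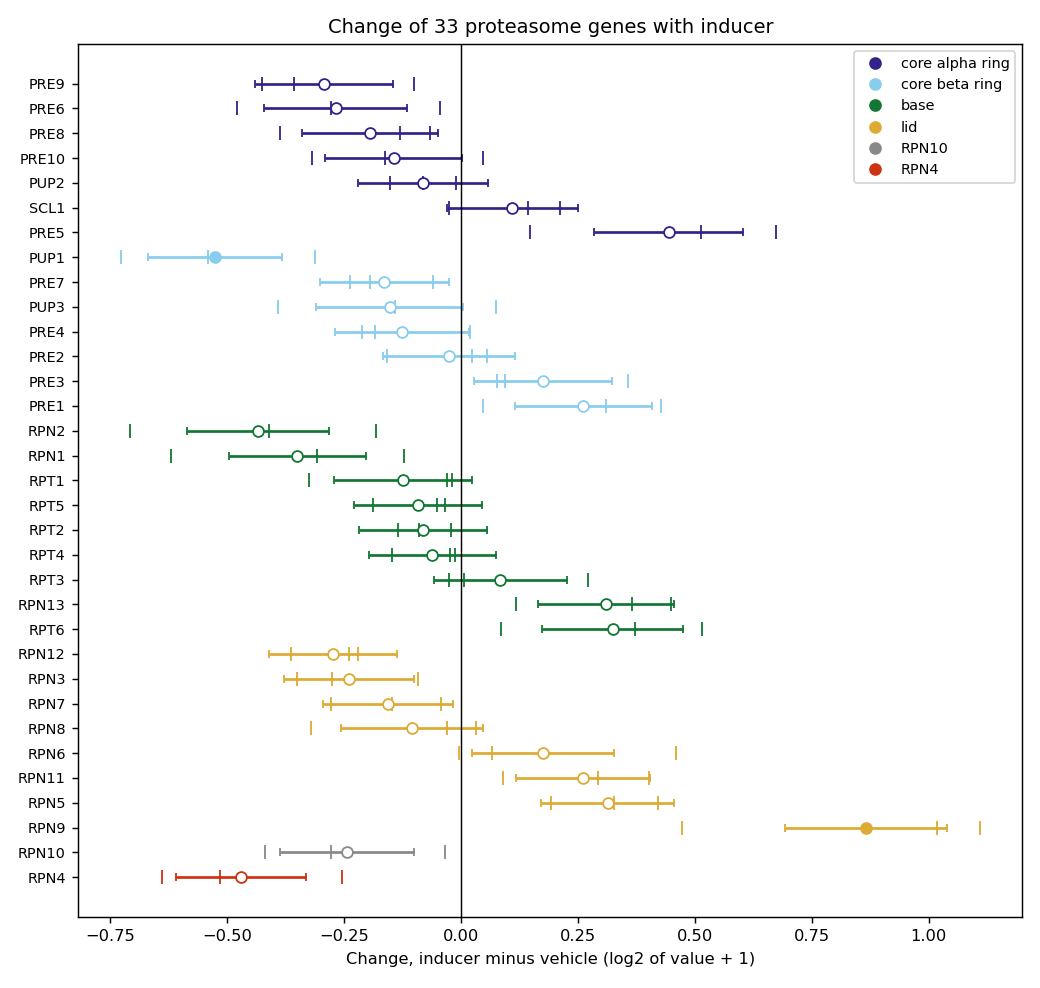
Change with inducer for each of the 33 proteasome genes, as inducer minus vehicle on the log2(value + 1) scale; circles are the fitted change with its SE over 3 hourly pairs, small vertical ticks are the 3 hourly differences, and filled circles passed limma's adjusted p under 0.05. RPN9 at 0.87 and PUP1 at -0.53 are filled, RPN4 at -0.47 is not, and PRE2, close to 0, changes side under median-of-ratios scaling.

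RPN4 (YDL020C), the activator, was, with RPN1, one of the 2 lowest members in every library. Its values were 517, 509.7 and 395 in vehicle at 6, 6.5 and 7 h and 361, 327 and 331 with inducer. All 3 inducer libraries lay below all 3 vehicle libraries, and the gap was narrowest at 7 h. The change was -0.47 ± 0.14 and did not pass (adjusted p = 0.056 by limma; hourly differences -0.52, -0.64 and -0.25). It passed with upper-quartile scaling (-0.49, adjusted p = 0.0396 by limma) and with the hours as a linear term (adjusted p = 0.0326 by limma). It did not pass without the 6 h pair (-0.45, adjusted p = 0.107 by limma) or the 6.5 h pair (-0.38, adjusted p = 0.409 by limma). The same held without the 7 h pair (-0.58, adjusted p = 0.0941 by limma) and under median-of-ratios scaling (adjusted p = 0.0727 by limma). Without the mean-variance trend the adjusted p was 0.0782 by limma, and with no filter on low values 0.156 by limma. Relative to the subunits, RPN4 stood at 0.367, 0.489 and 0.401 of the subunit median in vehicle and at 0.274, 0.306 and 0.294 of it with inducer. The ratio of activator to subunit transcript was therefore lower in each inducer library than in any vehicle library, and relative to the all-ORF median the change of RPN4 was -0.39.

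RPN9 (YDR427W), a scaffold subunit of the lid that yeast can live without, moved farthest. It stood at 1544, 1058 and 1155 in vehicle and at 2142, 2284 and 2339.5 with inducer. Its vehicle values were lower at 6.5 and 7 h than at 6 h, while its inducer values were not, and the groups did not overlap. The change was 0.87 ± 0.17, a 1.82-fold rise (adjusted p = 0.0169 by limma), with hourly differences of 0.47, 1.11 and 1.02. Among the 32 subunits it ranked 12, 15 and 10 in vehicle by level and 6, 2 and 3 with inducer. The call was lost with no filter on low values (adjusted p = 0.156 by limma), without the 6.5 h pair (0.74, adjusted p = 0.185 by limma) and without the 7 h pair (0.79, adjusted p = 0.094 by limma), and kept without the 6 h pair (1.06, adjusted p = 0.00463 by limma). The exact PACE element stands in its window, 109 bases before the start codon.

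Values in the rest of the lid spread to both sides of 0. RPN5, another scaffold subunit, stood at 2099, 1490.1 and 1573 in vehicle and 2399.7, 1995 and 1973 with inducer, a change of 0.31 ± 0.14 (adjusted p = 0.165 by limma). RPN11, the deubiquitinase of the lid, stood at 1142, 947 and 959 in vehicle and 1215, 1159.9 and 1268 with inducer. Its groups did not overlap, although the lowest inducer and highest vehicle values lay close together, and its change was 0.26 ± 0.14 (adjusted p = 0.238 by limma). RPN12, which is added last when the lid assembles, stood at 1579, 1037 and 1000.2 in vehicle and 1338, 891 and 778 with inducer, the lowest change in the lid at -0.27 ± 0.14 (adjusted p = 0.2 by limma). RPN3 stood at 1123, 814 and 784 in vehicle and 1054, 672 and 615 with inducer, a change of -0.24. RPN7 stood at 1112, 880.4 and 838 in vehicle and 1079, 727 and 757 with inducer, a change of -0.16. In these 3 genes the inducer library was lower at each hour, but the 6 h inducer library lay above vehicle at 6.5 and 7 h. RPN6, the lowest of the lid by mean level, stood at 807, 668 and 544 in vehicle and 806, 701 and 749 with inducer, a change of 0.18 ± 0.15. RPN8, the highest of all members, stood at 3461, 2885 and 3057 in vehicle and 3542, 2829 and 2449 with inducer. Its change was -0.10 ± 0.15 and came to 0.0025 without the 7 h pair. The signs of the hourly differences of RPN6 and RPN8 were mixed.

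PUP1 (YOR157C), which encodes the beta subunit with trypsin-like activity, was the core member that fell. It stood at 726, 582 and 499 in vehicle and at 585, 351 and 343 with inducer. The inducer library was lower at each hour, but the groups overlapped, since inducer at 6 h lay above vehicle at 6.5 and 7 h. The change was -0.53 ± 0.14, which is 1.44-fold lower (adjusted p = 0.0429 by limma). PUP1 was the lowest of the core and ranked 31 of 32 subunits in every library. The call was lost without the 6.5 h pair (-0.43, adjusted p = 0.369 by limma), without the 7 h pair (-0.52, adjusted p = 0.137 by limma), with median-of-ratios scaling (-0.47, adjusted p = 0.0576 by limma) and without the block for the hour (adjusted p = 0.185 by limma). It was also lost without the mean-variance trend (adjusted p = 0.0627 by limma) and with no filter (adjusted p = 0.156 by limma), and the direction was negative under each of these.

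PRE5 (YMR314W), an alpha-ring subunit, had the largest positive change of the core. It stood at 1394, 1091 and 1044 in vehicle and at 1544, 1557 and 1665 with inducer. No inducer value lay as low as any vehicle value, and the gap was widest at 7 h, with hourly differences of 0.15, 0.51 and 0.67. The change was 0.44 ± 0.16 and did not pass (adjusted p = 0.0919 by limma). It passed without the 6 h pair (0.59, adjusted p = 0.0472 by limma). It did not pass without the 6.5 h pair (0.41, adjusted p = 0.476 by limma) or the 7 h pair (0.33, adjusted p = 0.241 by limma). With no filter on low values the adjusted p was 0.172 by limma. PRE1, a beta subunit, stood at 1116, 863 and 819 in vehicle and 1153, 1072 and 1102 with inducer, a change of 0.26 (adjusted p = 0.248 by limma). PRE3, the beta subunit with caspase-like activity, stood at 2268, 1903 and 1688 in vehicle and 2392, 2032 and 2161 with inducer, a change of 0.18. For PRE1 and PRE3 the inducer library was higher at each hour by less at 6 h than at 7 h, and the groups overlapped.

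The other core members had negative changes apart from SCL1. PRE9, the alpha subunit that yeast can live without, stood at 2319, 1766 and 1557 in vehicle and 2164, 1316 and 1217 with inducer, a change of -0.29 ± 0.15 (adjusted p = 0.2 by limma). PRE6, an alpha subunit, stood at 2449.6, 1893 and 1494 in vehicle and 2021, 1358 and 1449 with inducer, a change of -0.27 ± 0.15 (adjusted p = 0.256 by limma). The inducer library of both genes was lower at each hour, least at 6 h for PRE9 and at 7 h for PRE6. PRE8 stood at 1419, 1323 and 1051 in vehicle and 1298, 1012 and 1004 with inducer, a change of -0.19. PRE7, a beta subunit, stood at 1421, 1082 and 920.3 in vehicle and 1206, 945.5 and 884 with inducer, a change of -0.16. PUP2, an alpha subunit, stood at 1848, 1476 and 1345 in vehicle and 1747, 1328 and 1335 with inducer, a change of -0.08. In each of them the difference had one sign at the 3 hours and lay within the range that the gene covered over time in vehicle. Mixed signs were found for PRE10 (-0.14), PRE4 (-0.13), PRE2 (-0.03), SCL1 (0.11) and PUP3 (-0.15). PUP3 was the highest of the core at 3317, 2961 and 2348 in vehicle and 3007, 2259 and 2474 with inducer. PRE2, the beta subunit with chymotrypsin-like activity, stood at 1533, 1338 and 1153 in vehicle and 1595, 1199.7 and 1172 with inducer, so the catalytic subunits Pup1, Pre2 and Pre3 differed in sign, with that of PRE2 turning positive under median-of-ratios scaling.

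In the base no member passed in either direction; by limma 2 of the 9 had an unadjusted p under 0.05, both with negative values. RPN2 (YIL075C), a scaffold that carries Rpn13, stood at 743, 630.2 and 513 in vehicle and at 655, 386 and 386 with inducer. The inducer values of 6.5 and 7 h lay below all vehicle values, and the change was -0.43 ± 0.15 (adjusted p = 0.0873 by limma). RPN1 (YHR027C), its partner scaffold and the lowest subunit, stood at 522, 436 and 365 in vehicle and at 480.0, 284 and 295 with inducer, a change of -0.35 ± 0.15 (adjusted p = 0.136 by limma). Both scaffolds showed the largest hourly difference at 6.5 h, -0.71 for RPN2 and -0.62 for RPN1. RPT6 (YGL048C), an ATPase, stood at 1433, 971 and 904 in vehicle and 1522, 1257 and 1293 with inducer, the highest change of the base at 0.32 ± 0.15 (adjusted p = 0.172 by limma). RPN13 (YLR421C), a ubiquitin receptor, stood at 1257, 939.6 and 971 in vehicle and 1363, 1282 and 1251 with inducer, a change of 0.31 ± 0.15 (adjusted p = 0.175 by limma). The inducer library of these 2 genes was higher at each hour, but vehicle at 6 h lay among the inducer values.

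The other ATPases, which form a ring with Rpt6, differed little between treatments. RPT1, the highest of the base by mean level, stood at 1855, 1509 and 1325 in vehicle and 1817, 1205 and 1309 with inducer, a change of -0.12 ± 0.15. RPT5 stood at 1180.0, 923 and 865 in vehicle and 1152, 810.3 and 836 with inducer, a change of -0.09 ± 0.14. In both genes the 3 hourly differences were negative, and the largest was at 6.5 h. RPT2 stood at 1296, 1049 and 1049.6 in vehicle and 1277, 957 and 987 with inducer, a change of -0.08 ± 0.14. RPT4 stood at 1172, 836 and 767 in vehicle and 1153, 755 and 761 with inducer, a change of -0.06 ± 0.14. RPT3 stood at 1136, 909 and 782 in vehicle and 1142, 893 and 945 with inducer, a change of 0.08 ± 0.14 that came to -0.01 without the 7 h pair. The median over the 6 ATPases was -0.07, with -0.12 the lowest and 0.32 the highest. RPN10, the ubiquitin receptor between base and lid, stood at 821, 687 and 579 in vehicle and 677, 514 and 565 with inducer, lower at each hour with a change of -0.24 ± 0.14 (adjusted p = 0.267 by limma).

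The time courses of 8 members show how the differences arose from the levels of each hour. For RPN9, PRE5 and RPN11 the vehicle values of 6.5 and 7 h lay below that of 6 h, while the inducer value of 7 h lay above that of 6 h. For PUP1 and RPN2 the later values were lower in both treatments, and with inducer those of 6.5 and 7 h were nearly equal. The lines of RPN12 and PRE3 did not cross, and the RPN4 line with inducer was lower and flatter from the first sample on.

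**Figure D3:**
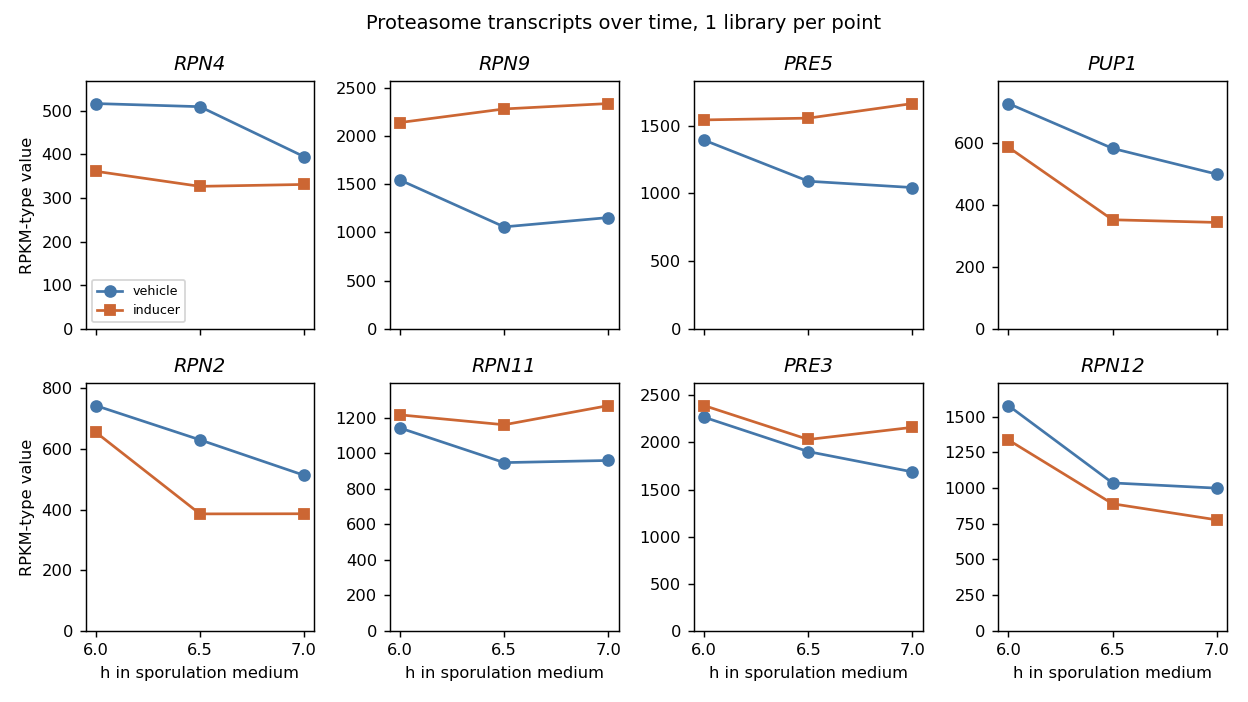
RPKM-type value (linear axes from 0) against hours in sporulation medium for 8 proteasome genes, 1 library per point, vehicle as circles and inducer as squares. RPN9 was 2142 at 6 h and 2339.5 at 7 h with inducer against 1544 and 1155 in vehicle, and RPN4 with inducer lay between 327 and 361 against 395 to 517 in vehicle.

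The second comparison followed the members from 6 to 7 h over both treatments. The values as deposited were lower at 7 h than at 6 h in all 33 members in vehicle and in 30 of 33 with inducer, RPN9, PRE5 and RPN11 being the exceptions. Among all tested ORFs 76.7% were lower at 7 h in vehicle and 61.0% with inducer. With median-of-ratios scaling the counts were 32 in vehicle and 24 with inducer, and with upper-quartile scaling 32 and 29, with RPN8 not lower in vehicle under either. The slope per hour was negative in all 33 members as deposited, in 30 under median-of-ratios scaling (not in PRE5, RPN9 and RPN11) and in 32 under upper-quartile scaling (not in RPN11). Over all ORFs it was negative in 69.9%, 48.5% and 51.1% under these 3 scalings. No member passed limma's threshold for a change over time in either direction, and 19 of 33 had an unadjusted p under 0.05, where 1335 of 6025 ORFs did. Over all ORFs 0.249% were called higher and 0.415% lower, which is 15 and 25 ORFs, so very few of any kind passed. That split was 34 and 7 under median-of-ratios scaling and 41 and 16 under upper-quartile scaling.

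The scaling shifts every slope, since the all-ORF median slope was -0.15 as deposited, 0.01 under median-of-ratios and -0.01 under upper-quartile scaling. Relative to that median, the slope was -0.26 for the core, -0.30 for the base, -0.20 for the lid and -0.11 for RPN4, and each differed by at most 0.01 under the other scalings. The slope lay below the all-ORF median in 31 members under each of the 3 scalings. As deposited, the medians were -0.41 per hour for the core, -0.46 for the base and -0.35 for the lid. Without the 6 h libraries they were -0.17, -0.070 and -0.068, and without the 7 h libraries -0.59, -0.86 and -0.67. The steepest slopes belonged to RPN12 at -0.72 ± 0.18 per hour (adjusted p = 0.0865 by limma) and PRE9 at -0.70 ± 0.18 (adjusted p = 0.0926 by limma). RPN11 at -0.10 ± 0.16 and RPN9 at -0.15 ± 0.20 had the flattest. RPN4 had a slope of -0.26 ± 0.16 (adjusted p = 0.355 by limma), nearer to 0 than the median of its subunit genes at -0.41.

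**Figure D4:**
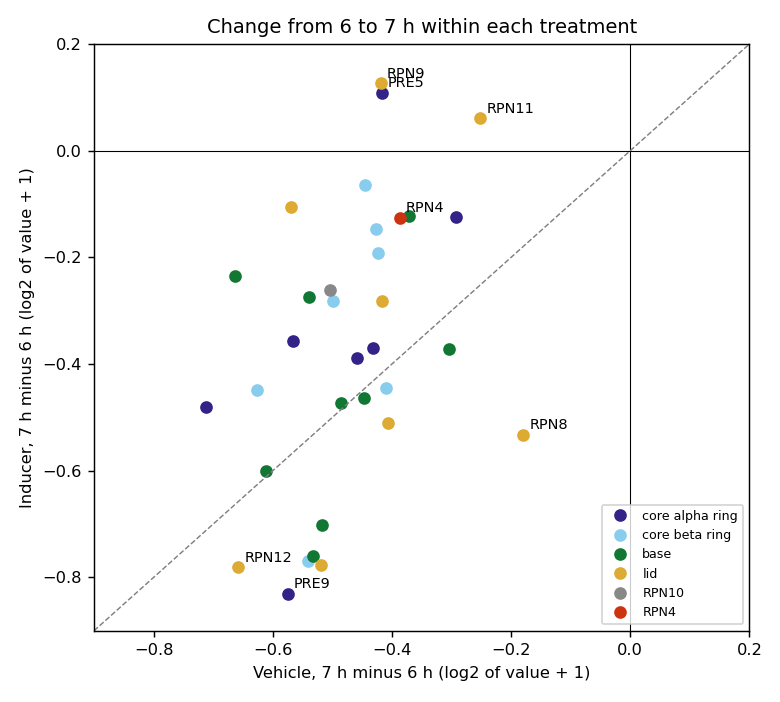
Change from 6 to 7 h within inducer against the same within vehicle for the 33 members, on the log2(value + 1) scale as deposited, with 1 library at each end and a dashed line of equal change. All 33 points lie left of 0 for vehicle, where median-of-ratios and upper-quartile scaling move RPN8 to the other side, and RPN9, PRE5 and RPN11 are the 3 above 0 for inducer.

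Whether the slope differed between the treatments was tested with an interaction of treatment and hours. By limma 0 of 33 members passed in either direction and 0 had an unadjusted p under 0.05. Over all tested ORFs 0.00% passed in either direction and 714 had an unadjusted p under 0.05. Without the inducer library of 6.5 h, 86 ORFs passed higher and 13 lower, and without that of 7 h, 68 and 18, with no member among them. These fits have fewer residual degrees of freedom than the full fit. The remaining inducer libraries are fitted exactly in them and add no spread, so the counts are not comparable with those of the full fit. The median interaction was 0.19 for the core, 0.01 for the base and 0.01 for the lid. In vehicle the median difference between 7 h and 6 h was -0.45 for the core, -0.52 for the base and -0.42 for the lid, and with inducer it was -0.36, -0.46 and -0.40. The members that stood apart in the plot of these differences did not pass the test of the difference in slope.

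Genes that build, feed or regulate the proteasome were read from 5 lists of companions. Of their 43 genes 6 rose and 3 fell with inducer, near the shares of all ORFs (10.0% higher and 8.35% lower). Of the 10 genes for assembly chaperones and SEM1, 2 rose and none fell, and the median change was 0.10. ADD66 and PBA1, whose products form the chaperone pair that guides the building of the alpha ring, were the risers. ADD66 (YKL206C) stood at 393, 265 and 271 in vehicle and at 744, 1092 and 1101 with inducer, a 3.16-fold rise of 1.66 ± 0.23 (adjusted p = 0.0054 by limma). PBA1 (YLR199C) stood at 166, 112 and 121 in vehicle and at 274, 359.7 and 406 with inducer, a 2.60-fold rise of 1.38 ± 0.21 (adjusted p = 0.00709 by limma). The groups of both genes were far apart at each hour. SEM1, the small subunit of the lid, stood at 3399, 3084 and 2998 in vehicle and 3651, 4659 and 4569 with inducer, and did not pass (0.44 ± 0.17, adjusted p = 0.107 by limma). UMP1, which helps the core mature, had a change of -0.35 (adjusted p = 0.178 by limma). NAS6 and RPN14, chaperones of the base, had changes of 0.24 and -0.22 and did not pass. Without the 7 h pair ADD66 and PBA1 no longer passed (1.48, adjusted p = 0.0704, and 1.19, adjusted p = 0.0779, by limma).

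Of 7 proteins that bind or regulate the assembled proteasome, 1 rose and 1 fell, with a median change of -0.05. SPG5 (YMR191W), which encodes a proteasome regulator of stationary-phase cells, stood at 2743, 2196 and 2507 in vehicle and at 3798, 5018 and 6004 with inducer. It rose 1.96-fold, by 0.97 ± 0.19 (adjusted p = 0.0168 by limma), and the groups did not overlap. ECM29 (YHL030W), whose product tethers the core to the regulatory particle, stood at 219.6, 212 and 169.6 (vehicle) and at 184, 101 and 114 (inducer), and fell by 0.63 ± 0.17 (adjusted p = 0.041 by limma) with overlapping groups. The calls of SPG5 and ECM29 were lost without the 6.5 h pair (0.86, adjusted p = 0.17, and -0.41, adjusted p = 0.305, by limma) and without the 7 h pair (0.83, adjusted p = 0.0936, and -0.66, adjusted p = 0.146, by limma). UBP6, the deubiquitinase bound to the base, HUL5, BLM10 and FUB1 had changes of -0.19, -0.05, -0.05 and 0.05 and did not pass.

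Of 12 genes of ubiquitin and its conjugation, 2 rose and 2 fell, with a median change of -0.21. UBC4 (YBR082C), a ubiquitin-conjugating enzyme for short-lived and abnormal proteins, stood at 525, 528 and 391 in vehicle and at 999, 1475 and 1563 with inducer. It rose 2.77-fold, by 1.47 ± 0.21 (adjusted p = 0.0057 by limma). Its near-identical paralog UBC5 stood at 5831, 5155 and 5334 in vehicle and 5491, 3848 and 3206 with inducer, a change of -0.41 ± 0.17 (adjusted p = 0.133 by limma). The genes of this pair thus had opposite signs, and their values are uncertain where reads could not be told apart. DOA4 (YDR069C), a deubiquitinase that recycles ubiquitin, stood at 34.8, 38.2 and 35.0 in vehicle and at 71.9, 86.9 and 90.5 with inducer, a 2.26-fold rise of 1.18 ± 0.14 (adjusted p = 0.00261 by limma). RPL40B and RPS31, which encode ubiquitin fused to ribosomal proteins, fell by 0.70 ± 0.14 (adjusted p = 0.0173 by limma) and 0.67 ± 0.17 (adjusted p = 0.0381 by limma). RPS31 was also the one companion called over time, at -1.27 ± 0.19 per hour (adjusted p = 0.0482 by limma), a call lost with any hour or library left out. RPL40A, a near-identical copy of RPL40B, DOA1 and UBA1 had changes of -0.30, -0.27 and -0.23 and did not pass. As with UBC4 and UBC5, the values of RPL40A and RPL40B are uncertain where reads could not be told apart. The UBC4 and DOA4 calls were lost without the 7 h pair (1.20, adjusted p = 0.0564, and 1.09, adjusted p = 0.0503, by limma). Those of RPL40B and RPS31 were lost without the 6.5 h pair (-0.56, adjusted p = 0.169, and -0.47, adjusted p = 0.367, by limma) and without the 7 h pair (-0.74, adjusted p = 0.0913, and -0.83, adjusted p = 0.0774, by limma). RPS31 also missed the threshold without the 6 h pair (-0.71, adjusted p = 0.0501 by limma).

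**Figure D5:**
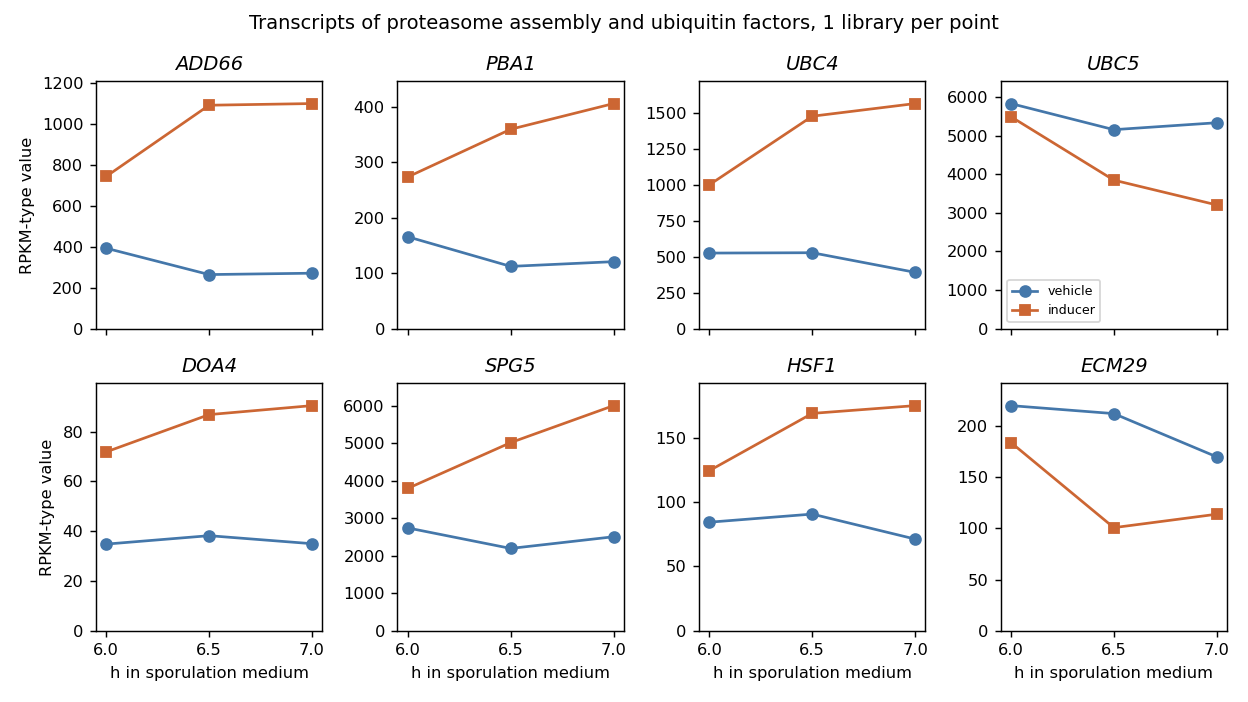
RPKM-type value (linear axes from 0) against hours in sporulation medium for 8 genes that act with the proteasome, 1 library per point, vehicle as circles and inducer as squares. ADD66, PBA1, UBC4, DOA4, SPG5 and HSF1 lie above vehicle at each hour, UBC5 and ECM29 below, and UBC4 reached 1563 at 7 h with inducer against 391 in vehicle.

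Of 7 genes for Cdc48, the segregase that hands substrates to the proteasome, and its shuttle factors, limma called 0 in either direction, with 1 at an unadjusted p under 0.05 and a median change of -0.19. CDC48 stood at 1159, 997 and 821 in vehicle and 1350.2, 1158 and 1279 with inducer, a change of 0.36 ± 0.15 (adjusted p = 0.143 by limma). The shuttle factors DSK2 and DDI1 and the cofactor SHP1 had changes of -0.47, -0.31 and -0.32, none of which passed. Of 7 regulators of RPN4, 1 rose and none fell, with a median change of -0.25. HSF1 (YGL073W), the heat shock factor, stood at 84.4, 90.7 and 71.3 in vehicle and at 124, 169 and 175 with inducer, a 1.88-fold rise of 0.91 ± 0.16 (adjusted p = 0.0116 by limma). Its call was lost without the 6.5 h pair (0.92, adjusted p = 0.0616 by limma) and without the 7 h pair (0.72, adjusted p = 0.0779 by limma). PDR1, an activator of RPN4, stood at 69.2, 59.4 and 53.5 in vehicle and 50.4, 41.5 and 41.3 with inducer, and did not pass (-0.44 ± 0.13, adjusted p = 0.0546 by limma). All inducer values lay below all vehicle values in 2 of the 7 regulators, PDR1 and YAP1, as for RPN4. Over all tested ORFs 14.1% were so. YAP1, also an activator of RPN4, and UBR2 and MUB1, whose products mark Rpn4 for degradation, had changes of -0.25, -0.39 and -0.27 and did not pass.

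The values were also set out by the presence of PACE. Subunits with the exact element had a median change with inducer of -0.09 (27 genes) and those without it -0.10 (5 genes). The 44 genes outside the members with the element in their window had a median of -0.16, and 5 of them rose and 4 fell, near the shares of all ORFs (10.0% and 8.35%). Among the companions CDC48, ECM29, UBA1, UBI4 and YAP1 held it, and none of the 10 genes for assembly and SEM1 did, so the exact element was absent from the windows of ADD66 and PBA1. The subunits that moved most, RPN9 upward and PUP1 downward, stand on either side of this division.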

How the data were processed

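The 6 directional poly(A) libraries gave single-end reads of 50 bp, per the labels' protocols. Bowtie2, TopHat and SAMtools were used, per the submitters' processing notes; the sources used here give no versions, build, annotation or filters and do not say whether counting used strand. The authors deposited RPKM-type values without counts, and the unit was read from the values. It was taken as a constant over the coding length less 60 bp. Of values below 40 reads, 76.0 to 80.8% were whole multiples of this unit, within 0.02 of a read. In vehicle at 6 h the constant was 0.220 per kb at 13.3 recovered megareads. In each library it was larger than RPKM over the recovered reads would give, and the origin of this scale is not known. Recovered reads describe depth only, and no count test was run. Symbols came from the file, with 762 added from the R64 gene table, which held 5994 of the ORF identifiers. No member's coding region overlaps another in R64.

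Values were transformed as log2(value + 1), which understates changes of low genes, and 654 ORFs with a mean under 5 were left out. limma 3.58.1 in R 4.3.3 was used with a mean-variance trend and Benjamini-Hochberg adjustment at 0.05: treatment with the hour as a 3-level factor, treatment plus linear hours, and their interaction. The planned test allowed for either unit, and that for normalised values applied. By the labels the sampling hour pairs the libraries. Across ORFs, the correlation of the deviations of paired libraries from the mean of their treatment was 0.32, 0.00083 and 0.11. Between vehicle and inducer libraries of different hours it was -0.23 to 0.22, so only the 6 h pair stood above that range. Libraries correlated at 0.925 to 0.987. The fits were tested on simulated data. The members, companion lists and tests were chosen with earlier results of these data known. Values were given for all members, for every companion that passed and for up to 4 others per list by smallest p. Rpn13, which the file places in the lid, was counted with the base, and Pre9, which the file calls beta-type, with the alpha ring. Motifs were searched in the R64 genome with Python 3.11.15. Alternatives were other pseudocounts, filters and scalings, no trend, other codings of the hour, hours or libraries left out, and other groupings of subunits.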

Additional observations from a re-analysis of the deposited data

How the results depend on the processing

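Of 504 values of single genes under 12 alternatives, 459 kept their direction and side of the threshold, 38 lost a call, 3 gained one and 4 changed sign. The sign changes were PRE2 at 0.028 under median-of-ratios scaling and 0.040 without 6.5 h, RPT3 at -0.0087 without 7 h and RPN8 at 0.0025 without 7 h; leaving out 1 hour gave -0.067 to 0.040, -0.0087 to 0.14 and -0.17 to 0.0025 for them. With inducer, no filter on low values left 3 ORFs higher and 0 lower, with 0 members and 0 companions in either direction. Without the trend, 260 ORFs, 0 members and 1 companion were lower. Without the replicate block for the hour, 145 ORFs, 0 members and 0 companions were lower; with it these were 503, 1 and 3. Median-of-ratios scaling left 0 members lower, and upper-quartile scaling and linear hours gave 2. Leaving out 1 hour gave 76 to 723 ORFs higher and 9 to 535 lower, 0 to 2 members higher and 0 to 1 lower, and 0 to 6 companions higher and 0 to 2 lower. The all-ORF median was -0.031 and the lid median 0.089 under median-of-ratios scaling, and the lid median was 0.18 with Rpn13 counted there, an alternative chosen after seeing the data, as was leaving HAC1 out of the totals.

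Over time, no filter gave 1 ORF higher and 0 lower, with 0 companions; without the trend there were 5, 0 and 0. Median-of-ratios scaling gave 34 and 7 with an all-ORF median of 0.013, and upper-quartile scaling 41 and 16 with -0.0073. Under these scalings the core median was -0.25 and -0.27, the base -0.29 and -0.31, and the lid -0.19 and -0.21. Within vehicle the base median was -0.52 and the lid -0.42, and within inducer the lid was -0.40. Leaving out an hour or a library gave 0 to 10 ORFs higher, 0 to 4 lower and 0 companions lower, with medians of -0.59 to -0.17 for the core, -0.86 to -0.070 for the base and -0.67 to -0.068 for the lid. For the interaction it gave 0 to 86 ORFs higher and 0 to 18 lower; leaving out a whole hour there left no residual degrees of freedom and gave no value. The cause of these shifts was not tested. With 3 pairs and no replicate of any treatment and hour, a member that did not pass is not shown to be unchanged.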
